A study of Mus musculus with 9 samples.

Results

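The genes described here are 9 components of the mouse inflammasomes, followed through 9 RNA-Seq libraries of bone marrow derived macrophages (BMDMs). They were taken by symbol from the deposited table of read counts: the sensors Nlrp3, Nlrp1b, Nlrc4, Aim2 and Mefv, the adaptor Pycard, the caspases Casp1 and Casp4, and the pore-forming protein Gsdmd, 9 of the 53465 genes listed. Every symbol stood on 1 row of the table.

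BMDMs were grown from the marrow of male wild-type C57BL/6 mice (the J substrain by the study's methods), whose age is not given in the sources used here, in a medium with CSF1 at 50 ng/ml. There were 3 groups of 3 libraries. BMDMs were left untreated (UNX), were given medium conditioned by pulmonary artery adventitial fibroblasts of control calves (CO-CM), or were given medium from the same kind of fibroblast taken from calves with hypoxia-induced pulmonary hypertension (PH-CM). The media are thus of bovine origin and were pooled over fibroblast populations, so the replicates repeat the mouse culture and not the calf. The labels disagree on the time in conditioned medium, with 16 h under growth and 24 h under treatment, and the study's methods give a further value between these. The comparisons asked how each medium, and the disease state of the fibroblasts behind it, was reflected in RNA levels of these genes. In bulk RNA, fewer cells of a type and less RNA per cell cannot be told apart.

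Inflammasomes are cytosolic complexes that link the detection of infection or damage to an inflammatory form of cell death. A sensor that has met its trigger recruits the adaptor ASC, the product of Pycard, which gathers and activates caspase-1. Caspase-1 then matures some cytokines of the interleukin-1 family and cleaves gasdermin D, whose fragment forms pores in the plasma membrane. Mouse Casp4 encodes the protein widely called caspase-11, which binds lipopolysaccharide in the cytosol and cleaves gasdermin D without a separate sensor. Macrophages are a main site of this pathway, and the RNA levels given here say nothing of whether a complex was assembled.

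In GRCm38 the 9 genes lie at chr11:59541568-59566956 (Nlrp3, plus strand), chr11:71153102-71230733 (Nlrp1b, minus), chr17:74425438-74459142 (Nlrc4, minus), chr1:173350879-173466040 (Aim2, plus), chr16:3707218-3718097 (Mefv, minus), chr7:127989708-127993867 (Pycard, minus), chr9:5298517-5307265 (Casp1, plus), chr9:5308828-5336783 (Casp4, plus) and chr15:75862327-75867408 (Gsdmd, plus). Reads were counted on exons. Casp1 and Casp4 are neighbours on chromosome 9. Aim2 overlaps Cadm3 on the other strand, which held 2 reads over all libraries, and Pycard overlaps Gm45205, which held 6. Nlrc4 overlaps the processed pseudogene CT033749.1 on its own strand, whose reads were not analysed here. Nlrp1b has the close paralog Nlrp1a, so reads of identical stretches may have been lost or split between them.

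The 3 promoters below belong to the sensors Nlrp3 and Nlrp1b, whose levels moved in opposite directions under both media, and to Casp4. They are shown to the base before the annotated gene start, read 5′ to 3′ on the strand of the gene, from RefSeq on GRCm38.p6. Capitals mark an NF-kB consensus in Nlrp3 (chr11:59541319-59541567, plus strand) and in Casp4 (chr9:5308599-5308827, plus strand), and the PU.1 core in Nlrp1b (chr11:71230734-71230983, minus strand). The first capital run of Casp4 holds 2 overlapping matches.
Nlrp3: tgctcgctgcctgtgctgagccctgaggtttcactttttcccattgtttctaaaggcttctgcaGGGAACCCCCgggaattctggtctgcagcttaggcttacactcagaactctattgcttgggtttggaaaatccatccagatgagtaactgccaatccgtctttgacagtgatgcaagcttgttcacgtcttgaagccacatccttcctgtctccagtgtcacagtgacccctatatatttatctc
Nlrp1b: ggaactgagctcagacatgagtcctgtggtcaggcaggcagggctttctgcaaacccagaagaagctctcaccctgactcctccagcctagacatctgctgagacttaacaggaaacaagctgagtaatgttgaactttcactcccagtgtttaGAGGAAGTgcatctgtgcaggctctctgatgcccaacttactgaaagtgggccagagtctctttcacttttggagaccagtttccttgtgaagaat
Casp4: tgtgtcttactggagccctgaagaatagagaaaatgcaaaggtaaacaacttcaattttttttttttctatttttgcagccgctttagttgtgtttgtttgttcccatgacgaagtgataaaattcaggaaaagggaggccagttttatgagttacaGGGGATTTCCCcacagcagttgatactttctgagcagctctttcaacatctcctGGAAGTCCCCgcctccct

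Windows of 300 bases, from 250 before to 50 after the start, were at hand for 8 of the 9 genes, all except Gsdmd, and were searched on both strands. The NF-kB consensus occurred in Nlrp3 and Casp4, against 8.46% of the 32851 windows of all genes. The PU.1 core occurred in Nlrp1b, Aim2 and, on the reverse strand, Pycard, against 3.2% of all windows. The ISRE core (3.44% of windows), the GAS motif (8.3%) and the AP-1 motif TGANTCA (7.81%) were in none of the windows of these genes. A match describes the letters of the window only.

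Libraries held 62017933 to 84314201 counted reads. A gene was tested where its CPM (reads relative to the library's total) exceeded 1 in at least 3 libraries, which held for 11950 genes and for 8 of the 9 studied here. These 8 exceeded it in every library. Only Mefv did not pass. The filter used CPM without TMM factors, and the CPM values printed are scaled by them. Calls required an edgeR false discovery rate (FDR) no higher than 0.05 together with a change of 1.2-fold or more. All 8 listed macrophage markers were among the genes tested, and their summed level was 11818 to 12613 CPM in UNX, 19014 to 19970 CPM in CO-CM and 21462 to 23274 CPM in PH-CM. Most of this sum was Lyz2 (means 7251, 12814 and 15204 CPM), and the markers did not all move alike, since Cd14 fell in CO-CM (log2 fold change -0.82, edgeR FDR 1.55e-05) and rose in PH-CM (1.43, edgeR FDR 1.87e-07). Their part in the results below was not tested.

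Against UNX, PH-CM changed 7 of the 8 tested genes, 4 upward (Nlrp1b, Nlrc4, Casp4, Gsdmd) and 3 downward (Nlrp3, Pycard, Casp1). Over all genes tested 62.9% were called in this comparison (31.3% higher, 31.6% lower), so a large share of changed genes is not particular to the inflammasome. CO-CM changed 4 of the 8 against UNX, with Nlrp1b, Nlrc4 and Casp4 higher and Nlrp3 lower, where 56.8% of all genes were called (28.0% higher, 28.8% lower). Both comparisons share the UNX libraries. PH-CM and CO-CM differed in 4 of the 8, with Nlrp3 and Nlrc4 higher and Pycard and Casp1 lower in PH-CM, where 27.1% of all genes were called (12.1% higher, 14.9% lower). The libraries of the groups did not overlap for 7, 5 and 7 of the 8 genes in these comparisons in turn, against 77.7%, 72.0% and 50.2% of all genes. The median log2 fold change of the 8 was 0.23, 0.17 and 0.09 in the same order, as genes that rose and fell were mixed.

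**Figure D1:**
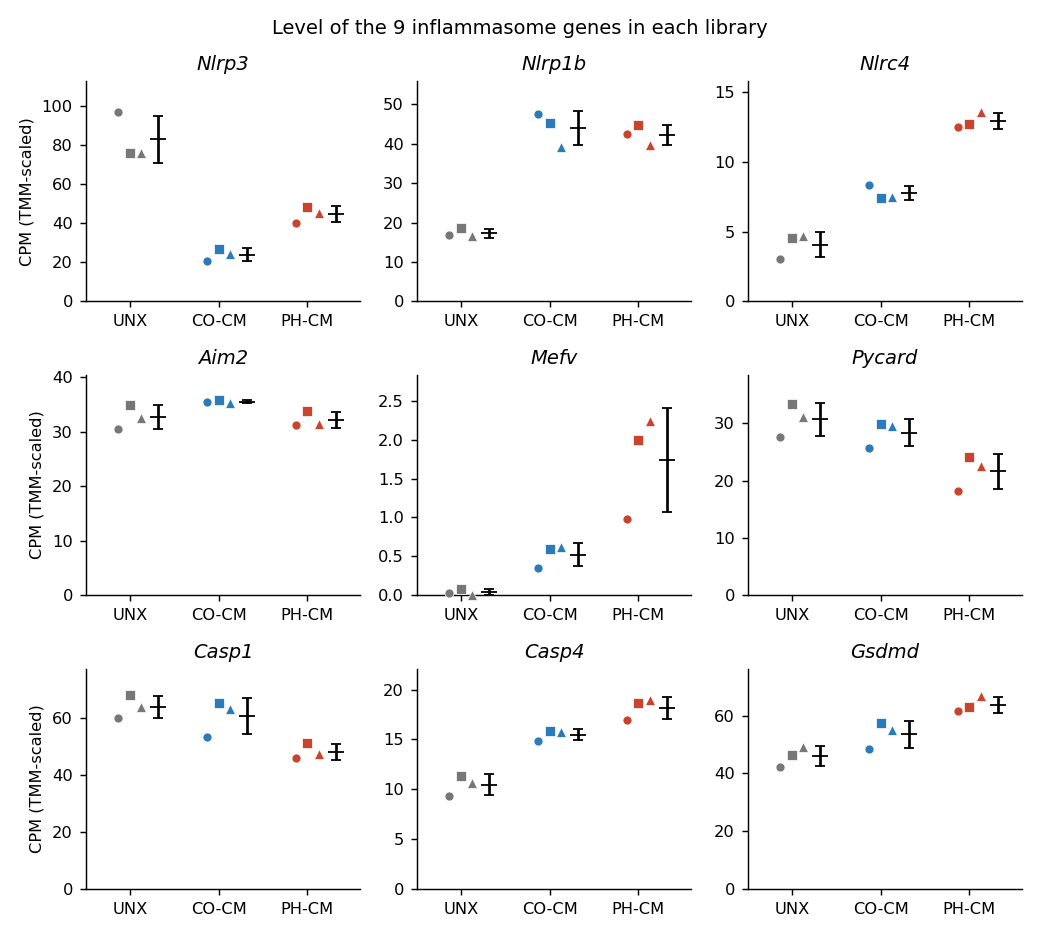
TMM-scaled CPM of the 9 genes (linear axes from 0) in UNX, CO-CM and PH-CM BMDMs. Circles, squares and triangles are replicates 1, 2 and 3, and black bars give the mean ± SD of 3 libraries. Nlrp3 lies lowest in CO-CM, Nlrp1b is raised alike by both media, Nlrc4 and Mefv climb from UNX through CO-CM to PH-CM, and Pycard and Casp1 are lowest in PH-CM.

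Nlrp3, which responds to many kinds of membrane and ion disturbance, was, per exon length, the sensor with the highest level in untreated cells. Its scaled level stood at 97.1, 76.2 and 75.9 CPM in the UNX libraries, at 20.4, 27.1 and 24.1 CPM in CO-CM and at 40.3, 48.6 and 45.1 CPM in PH-CM. None of the groups overlapped, and PH-CM lay between the other two. The level fell 3.48-fold in CO-CM (log2 fold change -1.80, SE 0.13, edgeR FDR 8.75e-07) and 1.86-fold in PH-CM (log2 fold change -0.89, SE 0.12, edgeR FDR 8.15e-05). It was 1.87-fold higher in PH-CM than in CO-CM (log2 fold change 0.90, SE 0.13, edgeR FDR 0.000343). Nlrp3 was the only tested gene of the 8 that was lower than UNX in both media and also differed between them.

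Nlrp1b, a sensor of which some alleles are opened by microbial proteases, went the other way. Its level was 16.8, 18.6 and 16.5 CPM in UNX, 47.6, 45.2 and 39.1 CPM in CO-CM and 42.4, 44.8 and 39.7 CPM in PH-CM. All 6 libraries in conditioned medium were more than double any untreated one, and the CO-CM and PH-CM libraries overlapped. The gene rose 2.54-fold in CO-CM (log2 fold change 1.34, SE 0.08, edgeR FDR 1.77e-07) and 2.44-fold in PH-CM (log2 fold change 1.29, SE 0.08, edgeR FDR 1.59e-07). No difference was detected between the media (log2 fold change -0.06, SE 0.08, edgeR FDR 0.622).

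Nlrc4 is the common partner of the Naip proteins, which bind bacterial flagellin and secretion system parts. It was at a low level, 3.06, 4.51 and 4.64 CPM in UNX (198 to 399 reads), 8.31, 7.41 and 7.51 CPM in CO-CM and 12.5, 12.7 and 13.6 CPM in PH-CM. The 3 groups were fully separate and stepped upward from UNX through CO-CM to PH-CM. The rise was 1.89-fold in CO-CM (log2 fold change 0.92, SE 0.14, edgeR FDR 0.000141) and 3.16-fold in PH-CM (log2 fold change 1.66, SE 0.14, edgeR FDR 1.17e-06). The 1.67-fold difference between the media also passed (log2 fold change 0.74, SE 0.13, edgeR FDR 0.00141).

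Aim2, the sensor of double-stranded DNA in the cytosol, was the tested gene that no comparison called. Its level was 30.5, 34.9 and 32.6 CPM in UNX, 35.4, 35.9 and 35.3 CPM in CO-CM and 31.2, 33.8 and 31.4 CPM in PH-CM. The CO-CM libraries were the highest by a narrow margin, and UNX and PH-CM overlapped. The log2 fold change was -0.02 for PH-CM against UNX (SE 0.06, edgeR FDR 0.725), 0.12 for CO-CM against UNX (SE 0.06, edgeR FDR 0.0908) and -0.14 between the media (SE 0.06, edgeR FDR 0.0784). With the replicate number as a block, the edgeR FDR was 0.0259 for CO-CM against UNX and 0.0174 between the media. Both changes were then under the fold threshold.

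Mefv encodes pyrin, a sensor that reacts to the action of certain bacterial toxins. It was close to absent in untreated BMDMs, with 2, 6 and 0 reads in the UNX libraries, 24, 40 and 44 reads in CO-CM and 66, 124 and 142 reads in PH-CM. In CPM the means were 0.0368 ± 0.0401 in UNX, 0.523 ± 0.149 in CO-CM and 1.74 ± 0.67 in PH-CM (SD, n = 3). The groups did not overlap and had the same order as for Nlrc4, with PH-CM replicate 1 well under its 2 companions. In a fit of all genes with at least 1 read, which included Mefv, the log2 fold change was 3.77 for CO-CM against UNX (SE 0.60, edgeR FDR 3.38e-05), 5.50 for PH-CM against UNX (SE 0.55, edgeR FDR 5.4e-08) and 1.73 between the media (SE 0.38, edgeR FDR 0.00255). Over the alternatives run the largest edgeR or DESeq2 FDR was 0.000463, 6.81e-06 and 0.0128 in the same order. All Mefv counts were even, as when both mates of a pair are counted, so the reads may come from fewer fragments. The size of the change against UNX rests on 8 reads. Without UNX replicate 2, which held 6 of them, the log2 fold change was 5.07 in CO-CM and 6.80 in PH-CM, and without UNX replicate 3, which held none, it was 3.12 and 4.85.

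Mefv and Nlrc4 are also expressed by neutrophils, so the 9 listed markers of neutrophils and their precursors are given beside them. Their summed level was 7.22 to 10.7 CPM in UNX, 56.3 to 74.2 CPM in CO-CM and 26.7 to 38.1 CPM in PH-CM, with 2 of the 9 (Csf3r and S100a8) among the genes tested. Ly6g, which defines mouse neutrophils, was at 0 reads in all libraries. Csf3r made up most of the sum (means 6.87, 61.8 and 31.2 CPM), and S100a8 was at 0.953, 2.49 and 2.47 CPM. The other listed markers were below the filter, and the list did not move alike. In the fit without the filter, Ltf and Cxcr2 were lower in PH-CM than in UNX (log2 fold change -2.23 and -3.40, edgeR FDR 0.000594 and 0.0156), on few reads. S100a9, Elane, Mpo and Camp had an edgeR FDR above 0.05 in that comparison. The part of such cells in the levels of Mefv and Nlrc4 was not tested. The lists of dendritic cells, of mast cells with basophils, and of lymphocytes summed to at most 0.805, 3.34 and 0.0562 CPM in any library. In the second list Kit fell in PH-CM against UNX (log2 fold change -3.17, edgeR FDR 5.48e-06). Mcpt8 of the same list, below the filter, was higher there in the fit without it (log2 fold change 2.74, edgeR FDR 0.00373). Cpa3 did not differ detectably (edgeR FDR 0.608), and Fcer1a was at 0 reads in all libraries. The fibroblast list summed to 197 to 249 CPM in UNX, 267 to 318 CPM in CO-CM and 249 to 335 CPM in PH-CM, with Col1a1, Col1a2, Col3a1 and Pdgfra called higher in PH-CM than in UNX, and its part in the results was not tested.

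**Figure D2:**
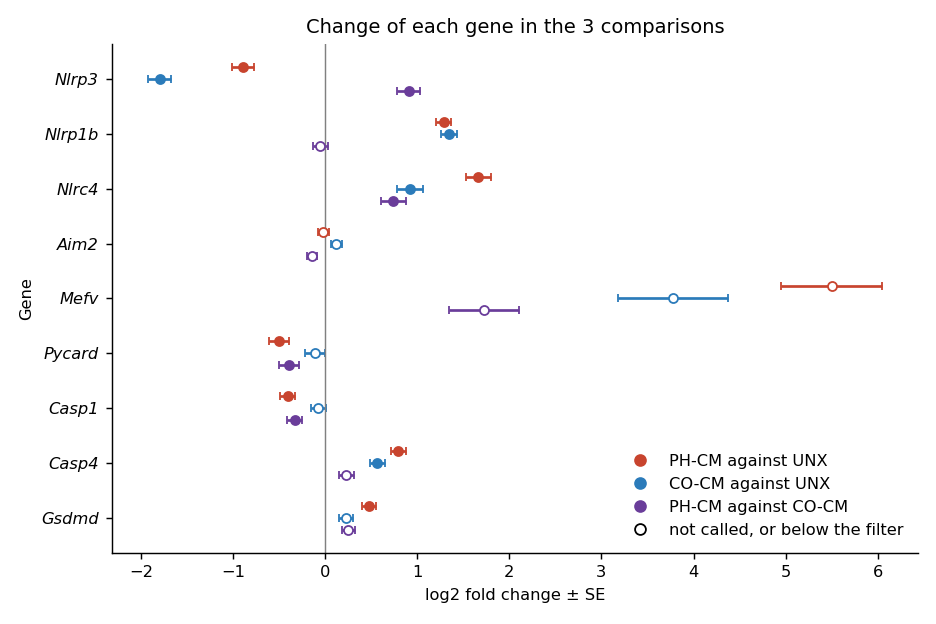
Log2 fold change ± SE of the 9 genes for PH-CM against UNX, CO-CM against UNX and PH-CM against CO-CM (3 libraries a group, edgeR). Filled points were called and open points were not; Mefv is open because it was below the filter, and its values come from the fit without the filter. Against UNX, Nlrp3 has the lowest values in both media, and Mefv has the highest values and the widest errors in all 3 comparisons.

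Downstream of the sensors, Pycard was lower in PH-CM. The adaptor stood at 27.6, 33.3 and 31.1 CPM in UNX, 25.7, 29.8 and 29.6 CPM in CO-CM and 18.2, 24.1 and 22.5 CPM in PH-CM. UNX and CO-CM overlapped, and all 3 PH-CM libraries lay below both. The fall was 1.42-fold against UNX (log2 fold change -0.51, SE 0.11, edgeR FDR 0.00153) and 1.31-fold against CO-CM (log2 fold change -0.39, SE 0.11, edgeR FDR 0.0159), and CO-CM did not differ detectably from UNX (log2 fold change -0.11, SE 0.11, edgeR FDR 0.372). Pycard was lower in PH-CM than in CO-CM within each replicate number, and the difference was called with that number as a block (log2 fold change -0.40, edgeR FDR 3.19e-05). In the fit with no block it was not called after leaving out CO-CM replicate 2 (log2 fold change -0.36, edgeR FDR 0.0539), CO-CM replicate 3 (-0.36, edgeR FDR 0.0586) or PH-CM replicate 1 (-0.28, edgeR FDR 0.0538).

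Casp1, the protease at the centre of the canonical pathway, showed the same order with larger margins relative to its error. It was at 60.0, 67.7 and 63.6 CPM in UNX, 53.3, 65.1 and 63.1 CPM in CO-CM and 45.7, 51.0 and 47.3 CPM in PH-CM. Again only PH-CM stood apart. Casp1 fell 1.33-fold in PH-CM against UNX (log2 fold change -0.41, SE 0.08, edgeR FDR 0.000683) and was 1.26-fold lower than in CO-CM (log2 fold change -0.33, SE 0.08, edgeR FDR 0.00686). For CO-CM against UNX the log2 fold change was -0.08 (SE 0.08, edgeR FDR 0.403).

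Casp4, the adjacent gene, moved upward. It was at 9.35, 11.4 and 10.7 CPM in UNX, 14.8, 15.9 and 15.8 CPM in CO-CM and 16.9, 18.6 and 18.9 CPM in PH-CM. The groups were separate in that order. The rise was 1.48-fold in CO-CM (log2 fold change 0.56, SE 0.08, edgeR FDR 0.000112) and 1.73-fold in PH-CM (log2 fold change 0.79, SE 0.08, edgeR FDR 6.65e-06). Between the media the 1.17-fold difference was below the fold threshold (log2 fold change 0.23, SE 0.08, edgeR FDR 0.0462), and among the libraries left out in turn it was called only without PH-CM replicate 1 (log2 fold change 0.29, edgeR FDR 0.0335).

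Gsdmd, the pore-former that both caspases cleave, was at 42.2, 46.2 and 49.1 CPM in UNX, 48.3, 57.3 and 55.1 CPM in CO-CM and 61.5, 63.1 and 66.8 CPM in PH-CM. PH-CM was above every other library, and UNX and CO-CM overlapped at a single library each. Gsdmd rose 1.39-fold in PH-CM against UNX (log2 fold change 0.48, SE 0.07, edgeR FDR 0.000145). The 1.17-fold difference of CO-CM against UNX (log2 fold change 0.22, SE 0.07, edgeR FDR 0.0187) and the 1.19-fold difference between the media (log2 fold change 0.25, SE 0.07, edgeR FDR 0.0203) were under the fold threshold. The first was called without CO-CM replicate 1 (log2 fold change 0.29, edgeR FDR 0.00301), and the second without CO-CM replicate 2 (0.30, edgeR FDR 0.0181), CO-CM replicate 3 (0.27, edgeR FDR 0.0384) or PH-CM replicate 1 (0.29, edgeR FDR 0.0284).

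Pycard, Casp1, Casp4 and Gsdmd, 4 of the 9 genes, were lowest in replicate 1 within each of the 3 groups. With the replicate number as a block, the count of called genes stayed at 7, 4 and 4 in the comparisons as ordered above.

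Levels of different genes were compared as RPKM, which divides by the exon length and carries no factor for library composition. In UNX, Casp1 was highest at 43.8 ± 2.22 RPKM, ahead of Gsdmd (26.5 ± 1.66 RPKM) and Nlrp3 (21.1 ± 3.40 RPKM), whose libraries overlapped. Aim2 (9.59 RPKM) and Pycard (8.29 RPKM) followed, then Casp4 (2.90 RPKM) and Nlrp1b (2.82 RPKM), which overlapped, then Nlrc4 (1.09 RPKM), and Mefv was last at 0.0115 RPKM (means, n = 3).

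In CO-CM, Casp1 stayed first (39.5 RPKM) and Gsdmd next (29.5 RPKM), while Nlrp3 dropped to 5.76 RPKM, below Aim2 (9.94 RPKM). The range of Nlrp3 (5.04 to 6.44 RPKM) overlapped that of Nlrp1b (6.04 to 7.55 RPKM, mean 6.83 RPKM). In PH-CM, Gsdmd (35.5 ± 1.27 RPKM) was above Casp1 (31.7 ± 1.44 RPKM), with no overlap, and Nlrp3 was next at 10.9 ± 0.873 RPKM. The remaining order was Aim2 (9.07 RPKM), then Nlrp1b (6.63 RPKM), Pycard (5.61 RPKM) and Casp4 (4.83 RPKM), each overlapping its neighbour, then Nlrc4 (3.33 RPKM) and Mefv (0.523 RPKM).

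**Figure D3:**
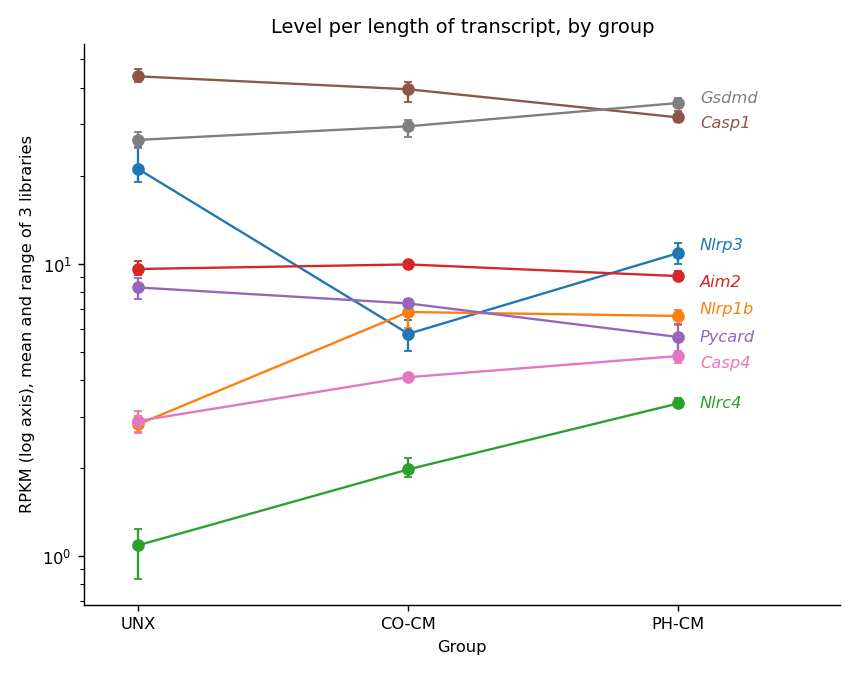
RPKM (log axis) of 8 genes in UNX, CO-CM and PH-CM; points are means and bars the range of 3 libraries. Mefv is left out since 1 UNX library was at 0. The Nlrp3 and Nlrp1b lines cross between UNX and CO-CM, and Gsdmd passes Casp1 in PH-CM.

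For 2 pairs, picked after their values were seen, the ratio within a library is given as a description. The ratio of Nlrp3 to Nlrp1b in RPKM was 8.97, 6.36 and 7.15 in UNX, 0.668, 0.932 and 0.958 in CO-CM and 1.48, 1.69 and 1.77 in PH-CM. Nlrp1b thus exceeded Nlrp3 per length in the CO-CM libraries and in no other. The ratio of Casp1 to Casp4 was 15.9, 14.8 and 14.8 in UNX, 8.91, 10.2 and 9.91 in CO-CM and 6.70, 6.78 and 6.19 in PH-CM, so the balance of the neighbouring genes moved toward Casp4 in both media.

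Of 46 further genes of the pathway, 39 could be tested. PH-CM changed 28 of them against UNX (17 higher, 11 lower), CO-CM changed 22 (11 higher, 11 lower), and 21 differed between the media (12 higher, 9 lower in PH-CM). As shares these are 71.8%, 56.4% and 53.8%, against 62.9%, 56.8% and 27.1% of all genes, and the list's median log2 fold changes were 0.17, -0.03 and 0.18. Of the 39, 6 exceeded 1 CPM in only some of the libraries (Naip1, Gbp5, Zbp1, Serpinb1a, Il1a and Il1b). Nlrp6, Nlrp12, Gsdmc, Casp12 and Il33 were below the filter, and Pydc3 and Pydc4 were not matched by symbol.

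Among 18 tested genes of sensing and its partners, 13 changed in PH-CM (10 higher, 3 lower) and 10 in CO-CM (7 higher, 3 lower). Between the media 8 differed (4 higher, 4 lower). As shares these are 72.2%, 55.6% and 44.4%, against 62.9%, 56.8% and 27.1% of all genes. The Naip genes, the ligand-binding partners of Nlrc4, rose in both media. Naip1 went from 0.139, 0.0928 and 0.256 CPM in UNX to 2.16, 2.17 and 1.97 CPM in CO-CM and 3.20, 3.33 and 3.12 CPM in PH-CM. Its log2 fold change against UNX was 3.64 in CO-CM (edgeR FDR 5.38e-07) and 4.26 in PH-CM (edgeR FDR 9.9e-08), and the size rests on 9, 7 and 22 UNX reads. Naip1 passed the filter through the libraries in conditioned medium, so its place among the called genes lends no support of its own.

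Naip2, Naip5 and Naip6 rose as well, with smaller fitted folds than Naip1. Naip5 rose by a log2 fold change of 1.23 in CO-CM (SE 0.07) and 0.86 in PH-CM (SE 0.07), and was lower in PH-CM than in CO-CM (log2 fold change -0.36, edgeR FDR 0.00166). Naip2 rose by 1.00 and 0.89 and Naip6 by 0.90 and 0.68 on the log2 scale in CO-CM and PH-CM, all called, and neither was called between the media. Naip1 was higher in PH-CM than in CO-CM (log2 fold change 0.61, edgeR FDR 0.0272), a call lost when CO-CM replicate 2 or 3 or any PH-CM replicate was left out, with an edgeR FDR of up to 0.0907. The Naip genes are paralogs, so reads of stretches they share may have been lost or split between them. Their separate counts are uncertain to that extent.

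Of the partners of Nlrp3, the kinase Nek7 was lower in PH-CM, at 115 ± 1.61 CPM against 139 ± 2.55 CPM in UNX and 148 ± 2.03 CPM in CO-CM (SD, n = 3). Its log2 fold change against UNX was -0.27 (edgeR FDR 6.81e-05), just past the fold threshold and under it without PH-CM replicate 2 (-0.26), and against CO-CM it was -0.36 (edgeR FDR 3.82e-05). P2rx7, the ATP-gated channel whose opening triggers Nlrp3, rose 1.67-fold in PH-CM and 1.58-fold in CO-CM (edgeR FDR 9.88e-07 and 3.39e-06). Txnip rose in PH-CM against UNX (log2 fold change 0.47, edgeR FDR 0.00633), and Brcc3, which removes ubiquitin from Nlrp3, fell in PH-CM (-0.52, edgeR FDR 4.46e-06) and in CO-CM (-0.44, edgeR FDR 2.15e-05).

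The largest called decrease of this class in PH-CM, against either other group, was Nlrp10, at 3.75 ± 0.244 CPM in PH-CM against 6.14 ± 0.935 CPM in UNX and 7.39 ± 0.438 CPM in CO-CM (SD, n = 3). It was 1.64-fold lower in PH-CM than in UNX (edgeR FDR 0.000337) and 1.97-fold lower than in CO-CM (edgeR FDR 0.000142). Gbp5, a guanylate-binding protein, was 2.10-fold higher in PH-CM than in CO-CM (edgeR FDR 0.00339). Its increase against UNX (log2 fold change 0.60, edgeR FDR 0.026) was not called without UNX replicate 1 (0.47, edgeR FDR 0.0897) or PH-CM replicate 3 (0.42, edgeR FDR 0.113).

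**Figure D4:**
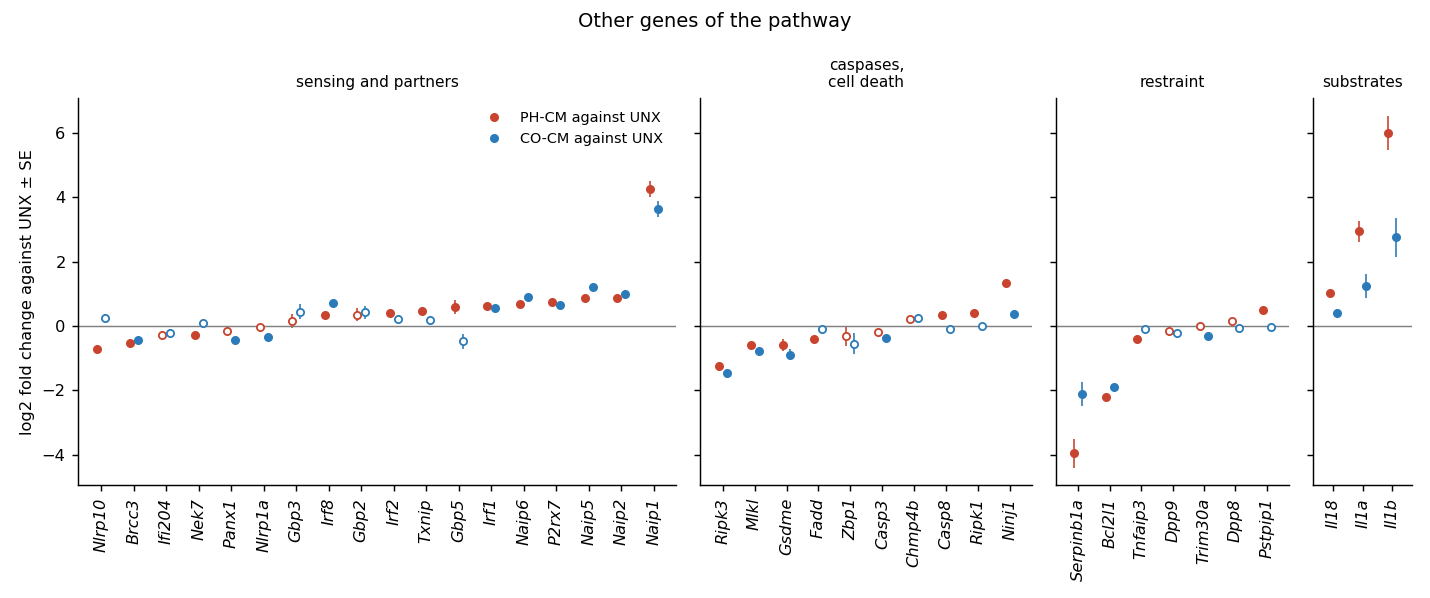
Log2 fold change ± SE against UNX of further pathway genes tested, in 4 classes, for PH-CM and CO-CM (edgeR, 3 libraries a group). Filled points were called and open points were not. Il1b and Naip1 lie highest for both media, and Serpinb1a and Bcl2l1 lowest.

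Among 11 tested caspases and partners in cell death, 8 changed in PH-CM (3 higher, 5 lower) and 6 in CO-CM (1 higher, 5 lower). Between the media 5 differed (3 higher, 2 lower). As shares these are 72.7%, 54.5% and 45.5%, against 62.9%, 56.8% and 27.1% of all genes. Ninj1, which ruptures the plasma membrane after pore formation, had the largest increase. It stood at 118, 125 and 127 CPM in UNX, 132, 179 and 171 CPM in CO-CM and 280, 330 and 327 CPM in PH-CM, with no overlap. It rose by a log2 fold change of 0.38 in CO-CM (edgeR FDR 0.00797) and 1.34 in PH-CM (edgeR FDR 1.18e-06), and was 1.94-fold higher in PH-CM than in CO-CM (edgeR FDR 6.92e-05).

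Casp8, a caspase that can stand in for Casp1 at ASC, rose in PH-CM, by a log2 fold change of 0.34 against UNX (edgeR FDR 2.32e-05) and 0.43 against CO-CM (edgeR FDR 1.9e-05). Ripk3, a kinase of necroptosis, fell 2.38-fold in PH-CM and 2.77-fold in CO-CM (edgeR FDR 2.34e-05 and 9.74e-06). Gsdme, a gasdermin cut by apoptotic caspases, fell by 0.59 and 0.89 on the log2 scale in the same order (edgeR FDR 0.0103 and 0.0011). Casp12, the remaining caspase of the Casp1 and Casp4 family, held 14 to 50 reads a library, and its log2 fold change in the fit without the filter was 0.60 in PH-CM (edgeR FDR 0.226).

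Of 7 tested genes in the class listed as restraint, 4 changed in PH-CM (1 higher, 3 lower) and 3 in CO-CM (0 higher, 3 lower). Between the media 5 differed (2 higher, 3 lower). As shares these are 57.1%, 42.9% and 71.4%, against 62.9%, 56.8% and 27.1% of all genes. Serpinb1a, a serpin that inhibits neutrophil serine proteases and caspase activation, was at 5.11, 6.44 and 6.22 CPM in UNX, 0.687, 1.18 and 2.23 CPM in CO-CM and 0.164, 0.547 and 0.443 CPM in PH-CM. It fell 15.5-fold in PH-CM (edgeR FDR 2e-05) and 4.31-fold in CO-CM (edgeR FDR 0.00063), with 11, 34 and 28 reads in the PH-CM libraries. Serpinb1a exceeded 1 CPM in 5 libraries, none of them in PH-CM, and so passed the filter through libraries where it was high. Its place among the lower genes of the class thus lends no support of its own. Pstpip1, listed here as a binding partner of pyrin that need not restrain it, rose 1.40-fold in PH-CM against UNX (edgeR FDR 0.000499). It was the 1 gene of the class called higher in that comparison, and was 1.43-fold higher in PH-CM than in CO-CM (edgeR FDR 0.0011). Dpp9, which holds Nlrp1b inactive, was not called, with a log2 fold change of -0.16 in PH-CM (edgeR FDR 0.016) and -0.22 in CO-CM (edgeR FDR 0.00233), and it was called in CO-CM without UNX replicate 2 (-0.27, edgeR FDR 0.00184).

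The class listed as substrates held cytokines of the interleukin-1 family, not all of them matured by caspase-1. The 3 tested, Il1a, Il1b and Il18, were called higher in all 3 comparisons. Over all genes 31.3%, 28.0% and 12.1% were called higher, in the order used above. However, Il1a and Il1b passed the filter through the libraries where they were high, and Il33 did not pass it. This count thus lends no support of its own. Il18 was at 3.52, 4.33 and 4.54 CPM in UNX, 4.97, 5.48 and 5.93 CPM in CO-CM and 7.68, 8.95 and 8.82 CPM in PH-CM. It rose 2.05-fold in PH-CM against UNX (edgeR FDR 1.7e-05) and was 1.55-fold higher than in CO-CM (edgeR FDR 0.00187). The smaller rise in CO-CM (log2 fold change 0.40, edgeR FDR 0.013) was not called without UNX replicate 1 (edgeR FDR 0.058) or CO-CM replicate 3 (edgeR FDR 0.0515). Il1b had a log2 fold change of 6.00 in PH-CM (SE 0.54, edgeR FDR 4.81e-06) and 2.76 in CO-CM (SE 0.61, edgeR FDR 0.0027), the latter 2.01 without CO-CM replicate 2, both against 12, 14 and 8 reads in the UNX libraries. The difference between the media was 3.24 (edgeR FDR 0.000275), and 3.99 without that library.

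The genes whose log2 CPM followed each tested gene most closely over the 9 libraries are given as a description, since the points share 3 groups. They were Cdkn1a and Nacc1 for Nlrp3 (Pearson r of 0.994 and 0.990), Man2a2 and Tlr8 for Nlrp1b (0.998 and 0.996), and Pdp1 and Mcemp1 for Nlrc4 (0.996 and 0.995). They were Tmem229b and Crip1 for Pycard (0.985 and 0.984), Lmo2 and Mov10 for Casp1 (0.996 and 0.984), Jak2 and Wipi1 for Casp4 (both 0.996), and Cd300lf and Tpcn2 for Gsdmd (0.987 and 0.984). Aim2 had the weakest matches, Copz2 (0.956) and Gbp8 (0.941). Genes with r above 0.95 numbered 848 for Nlrp1b, 748 for Casp4, 398 for Nlrc4 and 102 for Nlrp3. For Gsdmd, Casp1, Pycard and Aim2 there were 88, 58, 45 and 1, so most of the named genes are not distinctive.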

How the data were processed

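RNA-Seq libraries of 9 BMDM cultures (UNX, CO-CM and PH-CM, 3 each) were grouped by their labels. Reads were trimmed with AfterQC, aligned to GRCm38 with STAR and counted on exons with featureCounts 1.6.2, and the deposited counts are raw whole numbers for each gene. The authors also deposited RPKM values, which scale these counts to exon length and counted reads, and tables of their own comparisons (log2 fold changes, mean log2 CPM, p-values and FDR), which were not used. The study's methods list counting options that set neither strand nor read pairs, so the defaults of the program, unstranded single reads, apply. Among counts under 20, 81.4% to 83.8% per library were even, as when both mates of a pair are counted.

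The analysis used edgeR 4.0.16 under R 4.3.3. All libraries entered 1 robust quasi-likelihood fit with TMM factors and a mean per group, for genes exceeding 1 CPM in 3 or more libraries, and FDR values were adjusted by Benjamini-Hochberg across these 11950 genes. The fits were tested on simulated data. Libraries held 62017933 to 84314201 counted reads, so the spread between cultures limits precision for most of these genes, and counting error also matters for Mefv. No libraries of a group agreed within sampling noise (chi-square per gene at least 10.61). Replicate numbers are shared by the groups, and deviations from the group means correlated at r of 0.276 to 0.484 in the 9 pairs of libraries with the same number and at -0.376 to 0.0423 in the others, so a shared number pairs libraries. The values printed come from the fit without that block, as the study's methods name none, and the block is an alternative. The labels do not tie a number to a culture date, and p-values measure only the spread between these cultures. Alternatives were DESeq2 1.42.0, the edgeR exact test, other size factors, other filters, a fit of the 2 groups compared, a replicate block, no fold threshold, counts divided by 2, and each library left out in turn.

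The genes, the further pathway genes and the marker lists were chosen with earlier results of these data known. The text gives all 9 genes whatever their values. Of the further genes it gives Naip1, Naip2, Naip5, Naip6, Nek7, Txnip, P2rx7, Casp8, Casp12, Gsdme, Ninj1, Il1b, Il18, Dpp9 and Pydc3 and the largest called changes of each class, and for each tested gene the 2 genes with the highest Pearson r. A gene of the pathway list that this rule names is counted in its class but not reported here. Gene positions come from GENCODE on GRCm38, and 53274 of 53465 identifiers matched the reference names. Promoters come from RefSeq on GRCm38.p6.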

Additional observations from a re-analysis of the deposited data

How the results depend on the processing

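Of 456 fold changes of the 9 genes under 20 other settings, 439 kept their direction and their side of the threshold. Of the rest, 3 lost a call, 10 gained one and 4 changed sign. Mefv, below the filter, was held here to the same thresholds in fits without that filter. The setting with no fold threshold left the fold changes as they were, so calls gained under it rest on the threshold alone. The 4 that changed sign were small and not called: Aim2 in PH-CM against UNX with upper-quartile factors (0.0040) and without UNX replicate 2 (0.0149, range with 1 library left out -0.0802 to 0.0149), Casp1 in CO-CM against UNX without CO-CM replicate 1 (0.0086, range -0.134 to 0.0086) and Nlrp1b between the media without CO-CM replicate 1 (0.0049, range -0.134 to 0.0049). Pstpip1 in CO-CM against UNX, also not called, changed sign with upper-quartile factors (0.035) and without CO-CM replicate 1 (0.0651, range -0.115 to 0.0651). Counts of called genes stayed within 1.5 times throughout. Leaving out 1 library gave 7 to 7, 4 to 5 and 4 to 5 of the tested genes. The replicate block called 7, 4 and 4 of them and, over all genes, 7712, 7027 and 3605, against 7516, 6789 and 3234 without it. It also called Nlrp10 (0.27) and Gbp5 (-0.46) in CO-CM against UNX and Txnip (0.27) and Gsdme (0.31) between the media. Gsdmd in CO-CM against UNX was called with upper-quartile factors (0.29, edgeR FDR 0.00535) and between the media with library size alone (0.27, edgeR FDR 0.00834). With no filter, Txnip and Gbp5 in PH-CM against UNX (edgeR FDR 0.0684 and 0.0513) and Serpinb1a between the media (edgeR FDR 0.0834) were not called. The cause was not tested. The few reads of Mefv in UNX limit its fold changes against that group.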
